A study of Homo sapiens with 16 samples.

Results

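The 48 genes described here are interferon-induced genes and genes of class I antigen presentation, a list of gene symbols matched by name in a count table of 62703 genes. Of these, 32 passed the filter on low counts, together with 10566 genes in all, and 16 were too low to test. The counts came from 16 libraries made from spheroids, cells kept as floating 3-dimensional aggregates, of 3 lines derived from prostate tumors. The lines are LNCaP, which is enzalutamide-sensitive, 22Rv1, which is enzalutamide-resistant, and PC3. Each line was transfected with 25 pmol of an siRNA pool against MED12 (siMED12), a subunit of the Mediator kinase module, or the same amount of a control pool without a target (siCtrl), and was grown for 3 days in 2D and for 4 days as spheroids. There were 3 siCtrl and 3 siMED12 libraries in LNCaP, and 3 siCtrl and 2 siMED12 libraries (replicates 1 and 3) in both 22Rv1 and PC3. No library was treated with an interferon, every group was transfected, and no library here came from untransfected cells. Each cell line comes from 1 tumor, so a difference between lines is a difference between these 3 cultures.

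Interferons bind receptors that act through JAK kinases on STAT and IRF transcription factors. The type I and III interferons lead mainly to the factor ISGF3, made of STAT proteins and IRF9, which binds the interferon-stimulated response element (ISRE), whereas interferon gamma acts through the gamma-activated site (GAS). The products restrict viruses or raise the supply of peptides to the cell surface: proteasome subunits cut proteins into peptides, the TAP transporter carries these into the endoplasmic reticulum, and class I heavy chains with beta-2-microglobulin present them to T cells. Many of these genes are also expressed at a basal level without added interferon, and tumor cell lines differ widely in that level.

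The genes lie on 16 chromosomes, and 28 of the 48 lie in 9 groups separated by less than 500 kb (Gencode release 44, GRCh38). The IFIT genes IFIT2, IFIT3, IFIT1 and IFIT5 lie within 137.9 kb (chr10:89283694-89421605), OAS1, OAS3 and OAS2 within 105.9 kb (chr12:112905856-113011723), and PARP9, DTX3L and PARP14 within 202.9 kb (chr3:122527924-122730840). HLA-C and HLA-B lie in the class I region (chr6:31268749-31367067), and TAP2, PSMB8, PSMB9, TAP1 and TAPBP in or beside the class II region of the same chromosome (chr6:32821833-33314284).

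To show the elements through which these genes are known to answer interferon, the RefSeq promoter windows (GRCh38.p14, 250 bases before to 50 bases after a transcription start) were searched on both strands for the ISRE core GAAANNGAAA and the GAS core TTCNNNGAA. The table held windows for 42 of the 48 genes. The ISRE core was found in at least 1 window of 29 of the 42 genes (69.0%), against 4.38% of all 27305 genes with a window. By window, this was 33 of 53 windows (62.3%) against 3.57% of 35116. The GAS core was found for 11 of the 42 genes (26.2%), against 9.38% of all genes. The ISRE core was found for 20 of 28 tested genes and for 9 of 14 genes too low to test. Both HLA heavy chain genes with a window, HLA-B and HLA-C, had neither core in it. These are matches of letters and no measurement of binding was made.

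The following stretches carry the cores of genes on which the results below turn, on the strand of the gene, 5′ to 3′. The first 6 lines are ISRE cores and the last 2 GAS cores, in capitals. In IFIT1, IFIT3 and TAP1 the capitals are the reverse complement of the ISRE core, and in ISG15, B2M and TAP1 a pair of matches overlap.
IFIT1: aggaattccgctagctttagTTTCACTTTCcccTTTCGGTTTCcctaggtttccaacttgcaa
IFIT3: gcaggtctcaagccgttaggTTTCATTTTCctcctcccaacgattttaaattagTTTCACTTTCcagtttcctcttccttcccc
ISG15: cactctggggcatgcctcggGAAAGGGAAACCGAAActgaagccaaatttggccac
OAS3: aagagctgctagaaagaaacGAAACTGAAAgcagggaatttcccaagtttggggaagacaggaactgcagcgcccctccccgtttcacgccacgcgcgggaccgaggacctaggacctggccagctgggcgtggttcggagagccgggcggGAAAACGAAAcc
B2M: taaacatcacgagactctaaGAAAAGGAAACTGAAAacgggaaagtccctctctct
TAP1: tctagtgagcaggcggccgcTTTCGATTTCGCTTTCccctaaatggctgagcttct
IRF1: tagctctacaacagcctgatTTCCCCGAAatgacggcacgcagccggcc
OAS1: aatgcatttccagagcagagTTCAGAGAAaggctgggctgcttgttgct

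The IFIT1, IFIT3, ISG15, B2M, TAP1 and OAS3 stretches lie at chr10:89392487-89392549, chr10:89327821-89327904, chr1:1013364-1013419, chr15:44711353-44711408, chr6:32853803-32853858 (minus strand) and chr12:112938311-112938473. The IRF1 and OAS1 stretches lie at chr5:132490869-132490917 (minus strand) and chr12:112906774-112906822. All 8 stretches end before the transcription start, with the last base 74 to 140 bases before it in all but OAS3, where the stretch runs up to it.

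The libraries held 479118 to 993807 counts (median 764494), so that 3 counts corresponded to 3.15 to 6.22 CPM, the counts scaled to a library of 1e+06. The 48 genes took 0.0955% to 0.406% of all counts. Levels are given as CPM after TMM scaling. BRB-seq counts transcript 3′ ends, so a level does not depend on transcript length, and the read share of near-identical genes (HLA-B, HLA-C and HLA-E, or IFITM2 and IFITM3) is uncertain. In bulk RNA, fewer cells of a kind and less RNA per cell cannot be told apart. The labels do not say whether libraries of 1 group came from separate cultures, so p-values measure the spread between these libraries only. Of the markers fixed for other cell types, the 6 leukocyte genes had 0 to 5 counts in sum in 15 libraries. In PC3 siCtrl replicate 1 they had 39, all from LYZ, with PTPRC at 0 in every library. The 8 luminal genes summed to 3945 to 6276 CPM in LNCaP, 468 to 562 CPM in 22Rv1 and 106 to 241 CPM in PC3.

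The targeted gene was low in every library (5 to 22 counts). MED12 was at 9.94, 12.9 and 11.7 CPM in the LNCaP siCtrl libraries and at 6.99, 6.67 and 10.3 CPM with siMED12. In 22Rv1 it was at 23.4, 16.7 and 19.2 CPM and at 7.42 and 8.98 CPM, without overlap. In PC3 it was at 28.4, 8.41 and 18.8 CPM and at 15.8 and 14.5 CPM, so that the siMED12 libraries lay inside the siCtrl range. In LNCaP the log2 fold change was, with its SE here and throughout, −0.50 ± 0.46 (edgeR adjusted p = 0.878), in 22Rv1 −1.28 ± 0.46 (edgeR adjusted p = 0.175) and in PC3 −0.22 ± 0.43 (edgeR adjusted p = 0.987). The lower MED12 level thus passed the threshold in none of the 3 lines (edgeR), and in PC3 leaving out siCtrl replicate 1 turned the estimate to 0.25. With so few counts, these tests cannot decide how far MED12 fell. The paper reports from separate measurements that the knockdown was highly efficient in mRNA and protein, and also in spheroids.

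Several libraries stood apart. Genes restricted to PC3 among the siCtrl libraries were at 5.59% of their PC3 level in 22Rv1 siMED12 replicate 3 and at 1.03% in replicate 1. In the 22Rv1 siCtrl libraries they were at 0.358% to 0.489%, a share capped by their choice for at most 3 counts over those libraries. Genes restricted to LNCaP were at 2.47% of their LNCaP level in PC3 siMED12 replicate 3 and at 0.512% to 0.764% in the other PC3 libraries. Within PC3, siMED12 replicate 1 lay above replicate 3 for 29 of the 32 tested genes, against 49.2% of all tested genes.

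**Figure D1:**
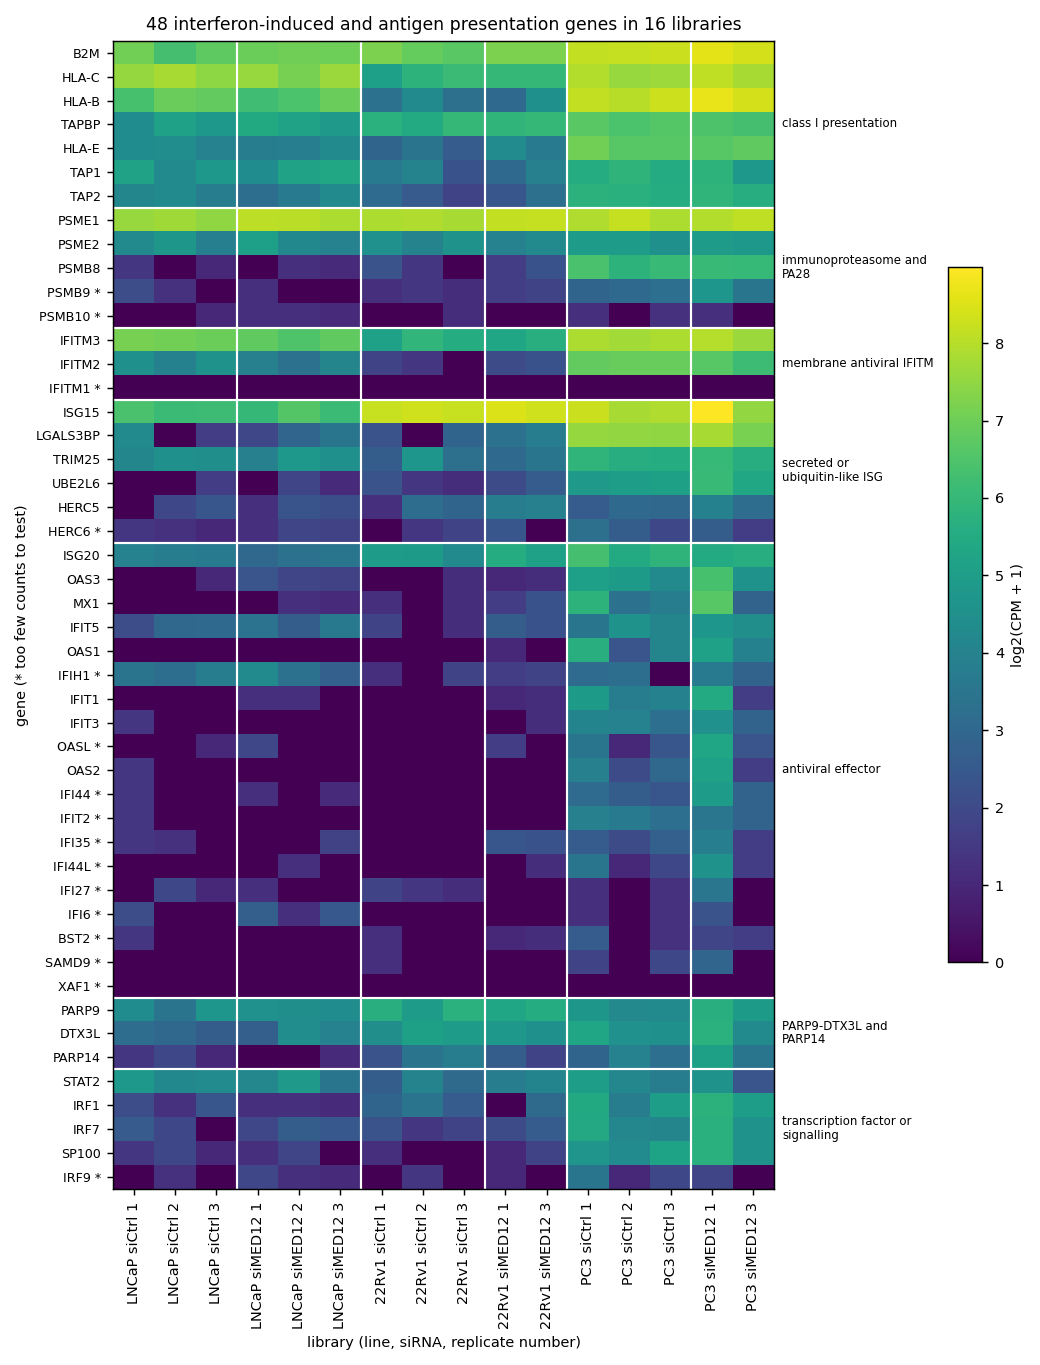
Level of each of the 48 genes (rows, grouped by role, asterisk for the 16 too low to test) in each of the 16 libraries (columns), as log2(CPM + 1) in color. The 5 PC3 libraries stand out in most rows, and IFITM1 and XAF1 are at 0 counts in all 16 libraries.

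Basal levels were compared between the siCtrl libraries first. The summed level of the 48 genes was 1057 ± 45.8 CPM in LNCaP, 1028 ± 34.4 CPM in 22Rv1 and 2722 ± 256 CPM in PC3 (mean ± SD, n = 3 each). Over all 48 genes, tested or not, PC3 had the highest mean siCtrl level for 39, 22Rv1 for 4 and LNCaP for 3, and 2 had no count. For 29 of the 39, every PC3 siCtrl library lay above every siCtrl library of both other lines. The share of all genes above both lines was not computed. By pair, every PC3 library lay above every LNCaP library for 28 of the 32 tested genes, against 3339 of all 10566. Against 22Rv1 this held for 24 of the 32 and for 3250 of all 10566. In the edgeR quasi-likelihood test, 27 of 32 tested genes were higher and 0 lower in PC3 than in LNCaP, where 29.2% of all tested genes were higher and 25.5% lower. Against 22Rv1, 25 were higher in PC3 and 1, PARP9, was lower, where 28.7% of all tested genes were higher and 26.1% lower. Between LNCaP and 22Rv1 the list split: 6 genes were higher and 9 lower in 22Rv1 than in LNCaP, against 22.0% higher and 21.2% lower of all tested genes.

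The filter itself favored this direction, since 13 of the 32 tested genes passed it within PC3 and within neither other line. Among the 15 genes that passed within both PC3 and LNCaP alone, 11 were higher in PC3 and 0 lower. Among the 13 that passed within both PC3 and 22Rv1, 8 were higher and 1 lower in PC3. Among the 11 that passed within both LNCaP and 22Rv1, 3 were higher and 5 lower in 22Rv1. The share called among all genes that pass within both lines was not computed, so these counts have no matching background.

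Class I presentation followed the order PC3, LNCaP, 22Rv1. The summed level of the 7 genes was 1029 to 1144 CPM in the PC3 siCtrl libraries, 473 to 514 CPM in LNCaP and 253 to 265 CPM in 22Rv1, so the ranges did not overlap. All 7 genes were higher in PC3 than in 22Rv1, and 6 of 7 were higher than in LNCaP. Of the same 7, 5 were lower and 1 higher in 22Rv1 than in LNCaP.

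HLA-B, a class I heavy chain, had the largest difference of the group between 22Rv1 and either other line. It was at 81.2, 122 and 111 CPM in LNCaP, at 9.11, 18.4 and 8.98 CPM in 22Rv1 and at 281, 255 and 312 CPM in PC3. The 22Rv1 libraries lay far below both other lines, with a log2 fold change of −3.16 ± 0.31 (edgeR adjusted p = 5.31e-10) against LNCaP, and PC3 lay above LNCaP by 1.41 ± 0.18 (edgeR adjusted p = 6.58e-08). HLA-C, the neighboring heavy chain, was at 187, 221 and 174 CPM in LNCaP, at 32.5, 55.2 and 68.0 CPM in 22Rv1 and at 246, 193 and 199 CPM in PC3. Here 22Rv1 was lower than LNCaP (−1.90 ± 0.20, edgeR adjusted p = 4.4e-09), while PC3 and LNCaP overlapped (0.14 ± 0.17, edgeR adjusted p = 0.495, 95% interval −0.20 to 0.48).

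HLA-E, a class Ib chain that presents leader peptides to natural killer cell receptors, was at 19.9, 20.1 and 14.8 CPM in LNCaP, at 6.51, 10.0 and 5.13 CPM in 22Rv1 and at 133, 99.9 and 99.7 CPM in PC3. B2M, the invariant light chain, was at 133, 80.2 and 107 CPM in LNCaP, at 146, 114 and 101 CPM in 22Rv1 and at 283, 289 and 308 CPM in PC3. B2M thus overlapped between LNCaP and 22Rv1 (0.19 ± 0.17, edgeR adjusted p = 0.408) even though HLA-B, HLA-C and HLA-E were lower in 22Rv1, and it was higher in PC3 than in LNCaP by 1.47 ± 0.15 (edgeR adjusted p = 1.44e-09). The transporter genes TAP1 (−1.41 ± 0.42, edgeR adjusted p = 0.00712) and TAP2 (−1.58 ± 0.46, edgeR adjusted p = 0.00646) were lower in 22Rv1 than in LNCaP, whereas TAPBP, which encodes tapasin, the chaperone that bridges TAP and the heavy chain, was higher (0.97 ± 0.24, edgeR adjusted p = 0.00154).

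Of the immunoproteasome genes, the catalytic subunit PSMB8 was called higher in PC3 than in both other lines. PSMB8, which replaces a constitutive subunit under interferon, was at 1.66, 0 and 1.06 CPM in LNCaP, at 3.90, 1.67 and 0 CPM in 22Rv1 and at 82.6, 54.7 and 65 CPM in PC3. LNCaP and 22Rv1 held 0 to 3 counts per siCtrl library, and the ratio of PC3 to LNCaP was 74.4 (95% counting interval 20.3 to 620.0). PSMB9, the neighboring catalytic subunit, had 0 to 2 counts per siCtrl library in LNCaP and 22Rv1 and 5 to 7 in PC3, and PSMB10, the third, had 8 counts over all 16 libraries. Both were too low to test. PSME1, the PA28 alpha subunit, was at 191, 209 and 179 CPM in LNCaP, at 233, 237 and 222 CPM in 22Rv1 and at 237, 290.2 and 231 CPM in PC3, and PC3 was higher than LNCaP by 0.40 ± 0.13 (edgeR adjusted p = 0.0106). PSME2, the beta subunit, was at 18.2, 25.8 and 13.8 CPM in LNCaP, at 22.1, 15 and 23.1 CPM in 22Rv1 and at 29.7, 29.4 and 21.7 CPM in PC3, and was called in no line contrast. The constitutive counterparts PSMB5, PSMB6 and PSMB7 were all tested and were also higher in PC3 than in LNCaP, by 0.71, 0.51 and 0.88 on the log2 scale (edgeR adjusted p = 7e-06, 0.00526 and 2.81e-06).

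The IFITM genes encode membrane proteins that block virus entry. IFITM3 was at 139, 135 and 123 CPM in LNCaP, at 33.8, 58.5 and 46.2 CPM in 22Rv1 and at 232, 213 and 231 CPM in PC3, with no overlap between any pair of lines. IFITM2 had the same order, at 21.5, 14.3 and 23.3 CPM, 2.60, 1.67 and 0 CPM and 112, 117 and 117 CPM, and 22Rv1, with 3 counts over its siCtrl libraries, was called lower than LNCaP (edgeR adjusted p = 3.04e-06). The ratio of PC3 to 22Rv1 was 80.9 (95% counting interval 27.4 to 395). IFITM1, which lies between them on chromosome 11, had no count in any library, although its window holds both cores. A count of 0 allows up to 3.15 to 6.22 CPM, depending on the library.

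**Figure D2:**
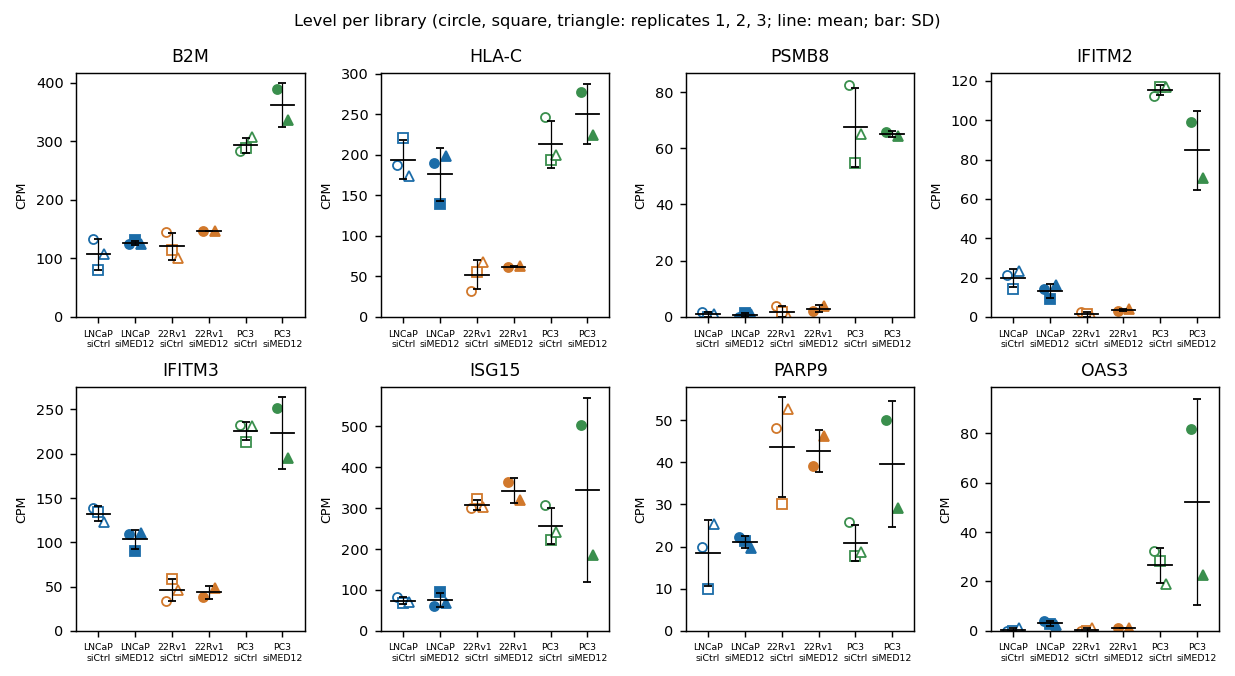
CPM of 8 genes per library, by line and siRNA (open symbols siCtrl, filled siMED12, circle, square and triangle for replicates 1, 2 and 3, line for the mean, bar for the SD, n = 3 or 2). HLA-C and IFITM3 are lowest in 22Rv1, PSMB8 and OAS3 are near 0 outside PC3, and ISG15 and OAS3 in PC3 siMED12 replicate 1 lie above all other libraries.

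ISG15, a secreted ubiquitin-like protein that is attached to other proteins during the interferon response, did not follow the same order. It was at 82.8, 68.7 and 70.0 CPM in LNCaP, at 301, 323 and 302 CPM in 22Rv1 and at 307, 223 and 241 CPM in PC3. The 22Rv1 and PC3 libraries overlapped, and both lines were higher than LNCaP, by 2.07 ± 0.23 (edgeR adjusted p = 1.06e-08) in 22Rv1 and by 1.80 ± 0.23 (edgeR adjusted p = 8.57e-08) in PC3. UBE2L6, the conjugating enzyme for ISG15, was instead at 0, 0 and 2.12 CPM in LNCaP, at 3.90, 1.67 and 1.28 CPM in 22Rv1 and at 27.1, 31.5 and 33.2 CPM in PC3. HERC5 was at 0 to 8.36 CPM in the siCtrl libraries of LNCaP and 22Rv1 and at 5.16, 7.36 and 7.22 CPM in PC3, and it was called in no line contrast. TRIM25, a ubiquitin ligase that acts on the RNA sensor RIG-I, was at 16.6, 21.5 and 21.2 CPM in LNCaP, at 5.21, 25.1 and 8.98 CPM in 22Rv1 and at 58.1, 47.3 and 46.2 CPM in PC3, the highest of the lines (called against both, edgeR). LGALS3BP, a secreted glycoprotein, was at 188, 181 and 179 CPM in PC3 and at no more than 18.2 CPM in any siCtrl library of the other lines.

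PARP9 and DTX3L, which encode the partners of 1 ADP-ribosylation and ubiquitin ligase complex, and PARP14, a related enzyme, were all higher in 22Rv1 than in LNCaP. PARP9 was at 19.9, 10.0 and 25.4 CPM in LNCaP, at 48.1, 30.1 and 52.6 CPM in 22Rv1 and at 25.8, 17.9 and 18.8 CPM in PC3. The 22Rv1 libraries were the highest, above LNCaP by 1.22 ± 0.30 (edgeR adjusted p = 0.00124), and PC3 was lower than 22Rv1 (−1.10 ± 0.29, edgeR adjusted p = 0.00169). DTX3L was higher in 22Rv1 than in LNCaP by 2.02 ± 0.46 (edgeR adjusted p = 0.000605) and PARP14 by 2.21 ± 0.76 (edgeR adjusted p = 0.0174). The PARP14 call rested on 1 to 2 counts per LNCaP siCtrl library and was lost in DESeq2 (adjusted p = 0.0519), without LNCaP siCtrl replicate 3 (edgeR adjusted p = 0.0941) and without 22Rv1 siCtrl replicate 3 (0.111).

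The antiviral effectors were low in LNCaP and 22Rv1. The 19 genes summed to 32.9 to 41.4 CPM in the LNCaP siCtrl libraries, to 25.7 to 40.3 CPM in 22Rv1 and to 170 to 351 CPM in PC3. All 8 tested effectors were higher in PC3 than in either other line, and the other 11 were too low to test. Of the 8, 6 (IFIT1, IFIT3, IFIT5, MX1, OAS1 and OAS3) had passed the filter within PC3 and within neither other line. OAS2 passed within no line alone, and held 19 counts over the PC3 siCtrl libraries, 1 over LNCaP and 0 over 22Rv1. The count of 8 was thus favored by the filter. IFIT1, which binds viral RNA, had 0 counts in all 6 siCtrl libraries of LNCaP and 22Rv1 and was at 28.4, 12.6 and 14.4 CPM in PC3, at least 4.45-fold higher than in LNCaP and at least 4.34-fold higher than in 22Rv1 when each library at 0 is set to 3 counts. OAS1, which makes 2′-5′ oligoadenylate when it binds double-stranded RNA, also had 0 counts there and was at 50.3, 4.21 and 15.9 CPM in PC3, at least 5.66-fold higher than in LNCaP and at least 5.51-fold higher than in 22Rv1. MX1, a GTPase that blocks RNA viruses, had 0 counts in LNCaP and 0 to 1 in 22Rv1, and was at 55.5, 9.46 and 13 CPM in PC3, at least 6.26-fold higher than in LNCaP. These 3 genes were called in PC3 against LNCaP (edgeR adjusted p = 2.24e-05, 8.42e-05 and 5.29e-05), and in each the PC3 siCtrl replicate 1 was above replicates 2 and 3. Without it the bounds against LNCaP were at least 3.26-fold for IFIT1, 2.42-fold for OAS1 and 2.71-fold for MX1, and against 22Rv1 at least 3.18-fold for IFIT1 and 2.36-fold for OAS1.

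OAS3, the long member of the OAS family, was at 0, 0 and 1.06 CPM in LNCaP, at 0, 0 and 1.28 CPM in 22Rv1 and at 32.3, 28.4 and 18.8 CPM in PC3. IFIT3 was at 15.5, 14.7 and 8.67 CPM in PC3, with 1 count over the LNCaP siCtrl libraries and 0 over 22Rv1 (at least 3.04-fold higher in PC3). IFIT5 was the exception among the IFIT genes, at 3.31, 7.16 and 7.42 CPM in LNCaP, at 2.60, 0 and 1.28 CPM in 22Rv1 and at 10.3, 23.1 and 15.9 CPM in PC3. It was called lower in 22Rv1 than in LNCaP (edgeR adjusted p = 0.0392), a call from 0 to 7 counts per library that was lost in DESeq2 (adjusted p = 0.0986), with all genes of at least 1 count (edgeR adjusted p = 0.0591), and without LNCaP siCtrl replicate 2 or 3 or 22Rv1 siCtrl replicate 2 or 3 (edgeR adjusted p = 0.0922, 0.136, 0.122 and 0.106). ISG20, an exonuclease, was detected in all lines, from 11.7 CPM in LNCaP to 78.7 CPM in PC3.

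Of the transcription factors, IRF1, IRF7 and SP100 were called higher in PC3 than in both other lines, and STAT2 only against 22Rv1. IRF1, the factor induced through GAS, was at 3.31, 1.43 and 4.24 CPM in LNCaP, at 6.51, 10.0 and 5.13 CPM in 22Rv1 and at 42.6, 12.6 and 31.8 CPM in PC3. STAT2 was at 26.5, 17.2 and 19.1 CPM in LNCaP, at 5.21, 15 and 7.70 CPM in 22Rv1 and at 31.0, 16.8 and 13 CPM in PC3. IRF9, the DNA-binding part of ISGF3, was too low to test, with at most 8 counts, in PC3 siCtrl replicate 1. IRF7, the factor that amplifies type I interferon, was at 4.97, 2.86 and 0 CPM in LNCaP, at 3.90, 1.67 and 2.57 CPM in 22Rv1 and at 41.3, 16.8 and 15.9 CPM in PC3. SP100, a nuclear body protein, was at 24.5, 18.9 and 36.1 CPM in PC3 and at most at 2.86 CPM in the other siCtrl libraries.

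The effect of MED12 siRNA was examined next. None of the 32 tested genes passed the edgeR threshold (adjusted p under 0.05) in any line or in the mean over the lines. The share of all tested genes called was 0.416% in LNCaP, 1.84% in 22Rv1, 0% in PC3 and 0.265% for the mean, so less than 1 call would match the background among 32 genes. At an unadjusted p under 0.05 there were 2 genes in LNCaP, 4 in 22Rv1, 9 in PC3 and 3 for the mean, where the shares of all tested genes were 7.34%, 11.7%, 4.99% and 8.52%. Among 32 genes, the counts in LNCaP, in 22Rv1 and for the mean were thus near those shares, and 9 in PC3 was above. The list was chosen with earlier results of these data known, so no conclusion is drawn from that excess. In PC3, siMED12 replicate 1 alone lay above every siCtrl library for 23 of the 32 genes. MX1 was called in PC3 when all genes with at least 1 count were tested (edgeR adjusted p = 0.0432). DESeq2 and limma also called 0 of them in each line. No member was called for a difference of effects between lines, where the share of all tested genes was 0.189% for 22Rv1 against LNCaP, 0.0284% for PC3 against LNCaP and 0.0946% for PC3 against 22Rv1 (2, 1 and 4 genes at an unadjusted p under 0.05, against 8.28%, 5.02% and 9.16% of all tested genes). The intervals are wide for most genes, so these results do not show that levels were equal.

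In LNCaP, the median differences of the siMED12 libraries had both signs. The median difference from the siCtrl mean, on the log2 CPM scale with a prior count of 2, was −0.23 in siMED12 replicate 1, 0.26 in replicate 2 and 0.093 in replicate 3, against 0, 0 and 0.0032 for all tested genes. Groups did not overlap for 5 of 32 genes (2 higher and 3 lower), against 12.6% of all tested genes. Within LNCaP alone, 15 of the 32 passed the filter, so a few counts decide this for some of the rest. PSME1 had the smallest p. It was at 191, 209 and 179 CPM with siCtrl and at 271, 267 and 236 CPM with siMED12, without overlap, for a log2 fold change of 0.42 ± 0.13 (edgeR adjusted p = 0.258). IFITM3 had an estimate of the opposite sign, with 139, 135 and 123 CPM and 109, 90.7 and 110.4 CPM, also without overlap (−0.35 ± 0.16, edgeR adjusted p = 0.66). DTX3L was at 8.28, 7.16 and 5.30 CPM and at 5.60, 20.02 and 14.9 CPM, with siMED12 replicate 1 inside the siCtrl range (1.01 ± 0.53, edgeR adjusted p = 0.713). Of the heavy chains, HLA-B had a log2 fold change of −0.16 ± 0.20 (edgeR adjusted p = 0.917) with a 95% interval of −0.58 to 0.25, and HLA-C one of −0.13 ± 0.17 (edgeR adjusted p = 0.921) with an interval of −0.48 to 0.21.

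In 22Rv1, the median difference was positive in both siMED12 libraries. The median difference was 0.26 in siMED12 replicate 1 and 0.47 in replicate 3, against 0.0064 and 0.025 for all tested genes, and 20 and 26 of the 32 genes were above the siCtrl mean. Groups did not overlap for 10 genes, all higher with siMED12. Of all 10566 tested genes, 26.6% did not overlap, 1453 higher and 1358 lower. Only 13 of the 32 tested genes passed the filter within 22Rv1 alone. For some of the rest, a few counts decide the sign and the overlap. IFIT1, for example, had 0 counts over the 22Rv1 siCtrl libraries. Without replicate 3, 24 of 39 tested genes had a positive fold change and 0 were called (edgeR), with 4 at an unadjusted p under 0.05, the spread of the lone siMED12 library being taken from the other groups. Replicate 3 is the library that held PC3-restricted genes at 5.59% of their PC3 level. After the estimated PC3 and LNCaP carry-over was subtracted from every library, 18 of the 32 genes had a positive fold change instead of 24. The genes used for the estimate had, by choice, at most 3 counts over the 22Rv1 siCtrl libraries. This caps the estimate there and not with siMED12, which favors taking more from the siMED12 libraries. The LNCaP part rested on 2 genes, with 0 to 1 counts per siCtrl library and 5 in each siMED12 library. How much of the drop to 18 comes from this choice was not tested. Among the genes high in PC3, 8 of the 10 counts of LGALS3BP, 14 of the 17 counts of HLA-B and all 3 counts of IFITM2 in replicate 3 were removed, and the estimate for IFITM2 turned from positive to negative. After subtraction, 4 genes (ISG20, MX1, HERC5 and PSME1) did not overlap and were higher with siMED12, and 1, HLA-B, did not overlap and was lower. The share of all tested genes after subtraction was not computed. MX1 was then at 2.12 to 2.57 CPM with siMED12, under 3 counts per library, against 0 to 1.30 CPM with siCtrl.

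The smallest p in 22Rv1 was that of HLA-E, which was at 6.51, 10.0 and 5.13 CPM with siCtrl and at 19.1 and 11.5 CPM with siMED12, without overlap. Its log2 fold change was 1.14 ± 0.45 (edgeR adjusted p = 0.252), and 0.86 after subtraction (edgeR adjusted p = 0.535). Subtraction left 4 of its 9 counts in replicate 3, inside the siCtrl range of 4 to 6, and 17 of 18 in replicate 1. Without replicate 3 the estimates were 1.43 for HLA-E, 1.28 for HERC5 and 0.88 for ISG20 (edgeR adjusted p = 0.219, 0.51 and 0.283). HERC5, the main ligase for ISG15, was at 1.30, 8.36 and 6.42 CPM and at 12.7 and 14.1 CPM (1.35 ± 0.55, edgeR adjusted p = 0.279). It had 11 to 12 counts in the siMED12 libraries against 1 to 5, and subtraction removed none of them. ISG20 was at 29.9, 28.4 and 18.0 CPM and at 46.7 and 34.6 CPM (0.70 ± 0.30, edgeR adjusted p = 0.306), again without overlap, and 0.70 after subtraction (edgeR adjusted p = 0.314). PSME1 was at 233, 237 and 222 CPM and 282 and 289.9 CPM (0.31 ± 0.14, edgeR adjusted p = 0.364). ISG15, at its highest basal level in this line, was at 365 and 321 CPM with siMED12 (0.16 ± 0.21, edgeR adjusted p = 0.836, 95% interval −0.28 to 0.59).

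**Figure D3:**
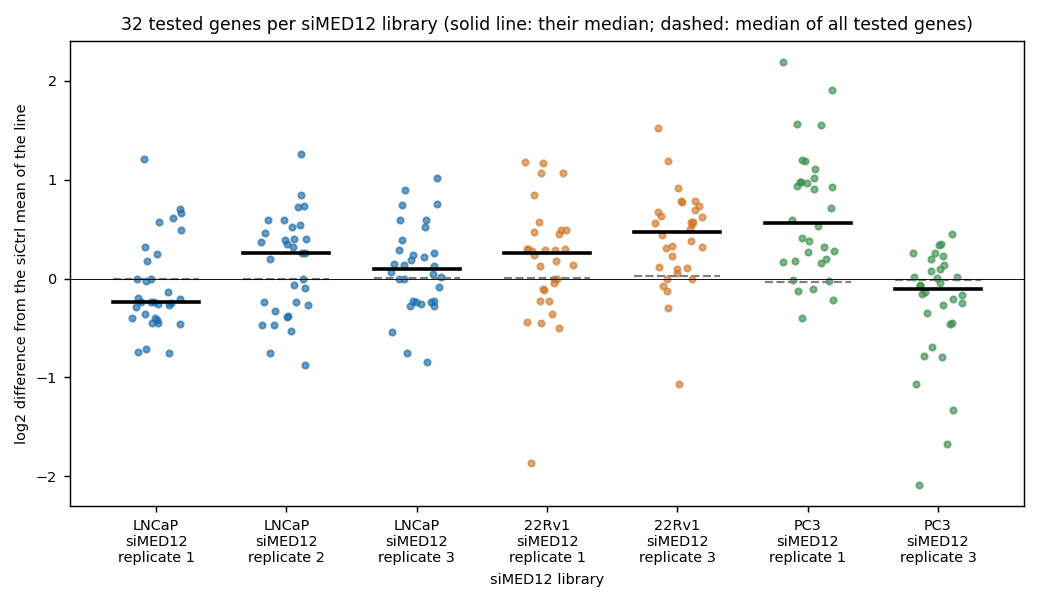
Log2 CPM difference of each of the 32 tested genes from the siCtrl mean of its line (points), per siMED12 library, with their median (solid line) and that of all tested genes (dashed line). The medians are −0.23, 0.26 and 0.093 in LNCaP, 0.26 and 0.47 in 22Rv1, and 0.56 and −0.10 in the PC3 replicates 1 and 3.

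In PC3, replicate 1 with siMED12 lay above the siCtrl mean for most members, and replicate 3 did not. The median difference from the siCtrl mean was 0.56 in replicate 1, with 26 of 32 genes above it, and −0.10 in replicate 3, with 13 above, against −0.031 and −0.017 for all tested genes, of which 45.4% and 47.3% were above. Groups did not overlap for 6 genes (5 higher and 1 lower), against 20.7% of all tested genes. OAS3 was at 32.3, 28.4 and 18.8 CPM with siCtrl and at 81.8 and 22.8 CPM in siMED12 replicates 1 and 3, for a log2 fold change of 1.09 ± 0.33 (edgeR adjusted p = 0.833). Replicate 1 was above and replicate 3 inside the siCtrl range, and without replicate 1 the estimate turned to −0.23. PARP9 was at 25.8, 17.9 and 18.8 CPM and at 50.1 and 29.0 CPM (1.00 ± 0.33, edgeR adjusted p = 0.873), and UBE2L6 at 27.1, 31.5 and 33.2 CPM and at 64.6 and 39.4 CPM (0.82 ± 0.30, edgeR adjusted p = 0.891). Both siMED12 libraries lay above all siCtrl libraries for these 2 genes, with replicate 1 the higher. Without replicate 1 the estimates were 0.48 for PARP9 and 0.36 for UBE2L6 (edgeR adjusted p = 1 for both).

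**Figure D4:**
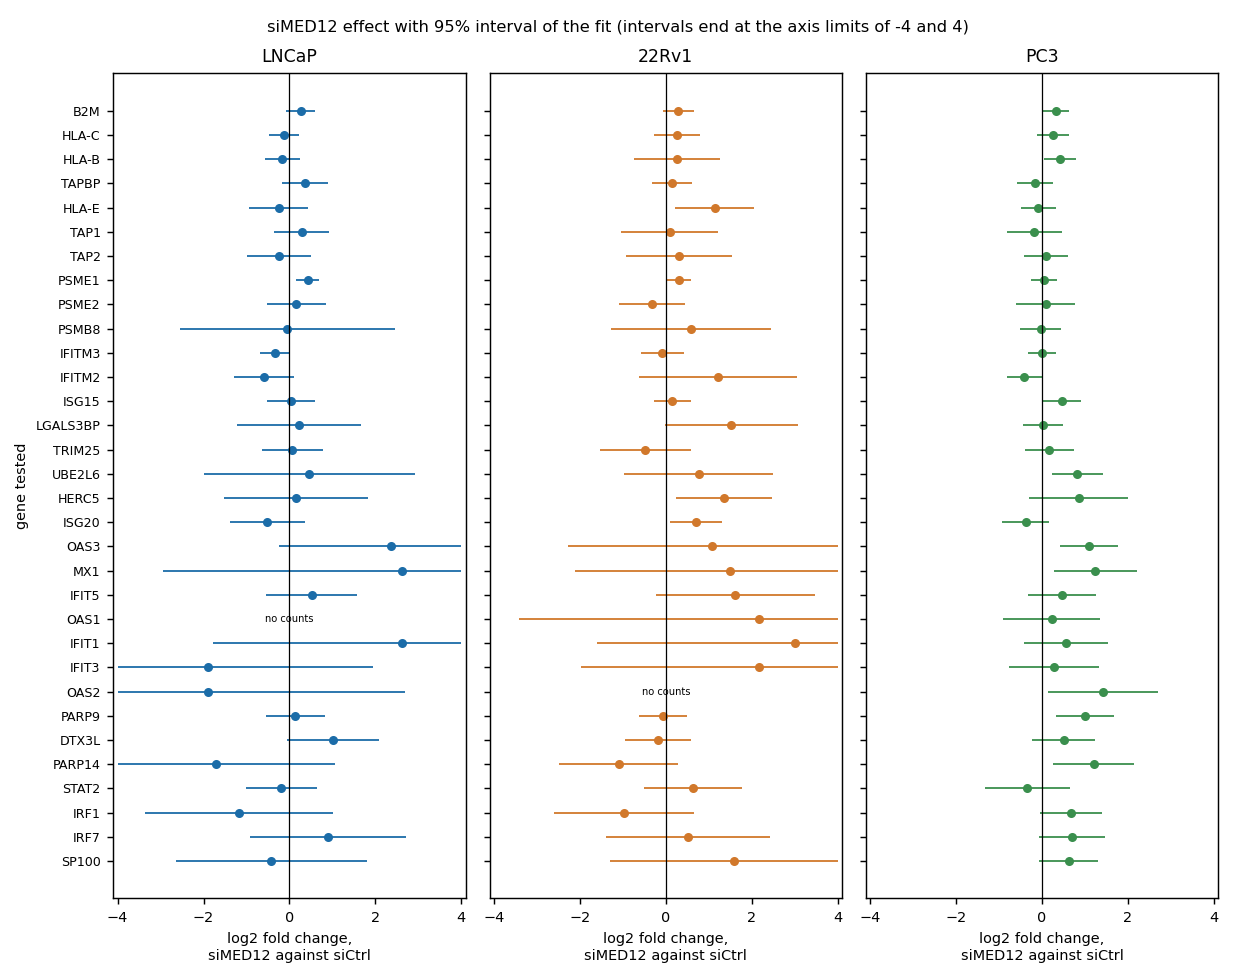
Log2 fold change of siMED12 against siCtrl with its 95% interval from the edgeR fit for the 32 tested genes in LNCaP, 22Rv1 and PC3 (intervals end at −4 and 4, and OAS1 in LNCaP and OAS2 in 22Rv1 had no counts). Most intervals cross 0. Those that do not include PSME1 in LNCaP (0.15 to 0.69) and OAS3 in PC3 (0.42 to 1.76), and no gene passed the adjusted threshold.

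The split between the PC3 siMED12 libraries was wide for the antiviral effectors. The 19 antiviral effectors summed to 351, 170.3 and 184 CPM in the siCtrl libraries and to 535 and 151 CPM in siMED12 replicates 1 and 3, a range within 1 condition that was wider than the distance between the conditions. Among single effectors, MX1 was at 55.5, 9.46 and 13 CPM and at 98.9 and 6.22 CPM, and OAS2 at 14.2, 3.15 and 7.22 CPM and at 34.3 and 2.07 CPM. For both, replicate 3 with siMED12 was below every siCtrl library and replicate 1 above every one. ISG15 was at 307, 223 and 241 CPM with siCtrl and at 504 and 185 CPM with siMED12, the highest and the lowest of the 5 libraries. For class I presentation, the summed level was 1144, 1029 and 1107 CPM with siCtrl and 1376 and 1161 CPM with siMED12.

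Over the 32 tested genes, siMED12 replicate 1 was above all 3 siCtrl libraries for 23 (all tested genes: 23.9%), and replicate 3 was below all of them for 12 (all tested genes: 29.0%). The siCtrl library of the same number, replicate 1, was the highest siCtrl library for 22 of 32 genes (all tested genes: 34.4%) and for 7 of the 8 tested effectors. Against the siCtrl library of its own number, siMED12 replicate 1 was higher for 25 of 32 genes (all tested genes: 47.5%) and replicate 3 for 15 of 32 (all tested genes: 45.5%). The labels do not say what the replicate number stands for in culture or library preparation, and its part in these levels was not tested. Without siMED12 replicate 1, 11 of 34 tested genes had a positive fold change and 0 were called. Without siMED12 replicate 3, 32 of 39 had a positive fold change and again 0 were called, with a smallest edgeR adjusted p of 0.0581. With both PC3 libraries of number 1 left out, 16 of 31 were positive and 0 were called. Each of these fits leaves PC3 siMED12 with 1 library, whose spread is taken from the other groups.

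**Figure D5:**
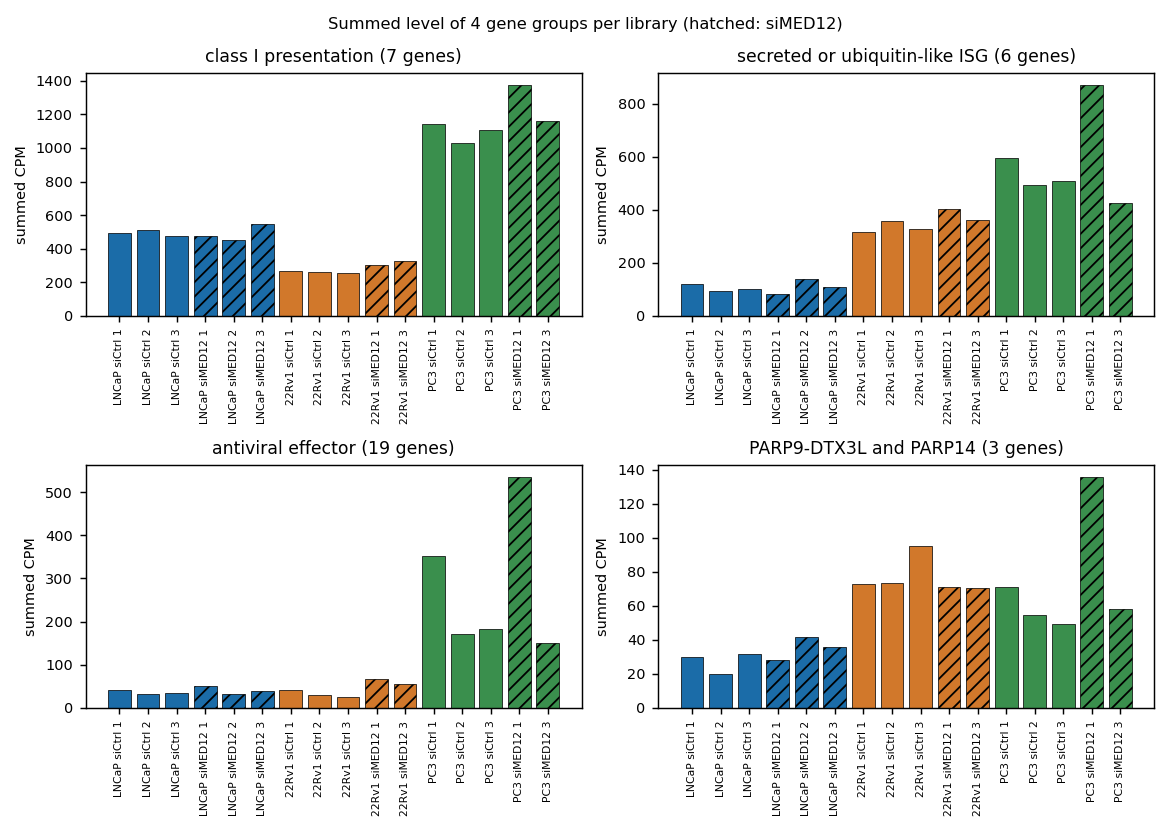
Summed CPM of 4 of the gene groups in each of the 16 libraries (bars, hatched for siMED12, colored by line). In PC3 the 19 antiviral effectors range from 151 CPM in siMED12 replicate 3 to 535 CPM in siMED12 replicate 1, whereas in LNCaP and 22Rv1 they stay between 25.7 and 66.8 CPM.

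The genes too low to test were IFI6, IFI27, IFI35, IFI44, IFI44L, IFIT2, IFIH1, OASL, BST2, SAMD9 and XAF1 among the effectors, HERC6, IFITM1, IRF9, PSMB9 and PSMB10. Apart from IFITM1 and XAF1, they had 8 to 82 counts each over the 16 libraries. OASL, named here because of its values, was at 10.3, 1.05 and 4.33 CPM in the siCtrl libraries and at 38.2 and 4.15 CPM in siMED12 replicates 1 and 3. When all genes with at least 1 count were tested, OASL and MX1 were called in PC3 (edgeR adjusted p = 0.0241 and 0.0432), although replicate 3 of both was within or below the siCtrl range. IFI44 was at 7.74, 5.26 and 4.33 CPM and at 30.3 and 6.22 CPM, and PSMB9 at 6.45, 7.36 and 8.67 CPM and at 25.1 and 10.4 CPM. Of the 16 genes, 7 had their highest count in PC3 siMED12 replicate 1. IFIH1, the RNA sensor MDA5, was higher in all 3 LNCaP siCtrl libraries, at 9.94, 8.59 and 12.7 CPM, than in those of 22Rv1 (1.30, 0 and 2.57 CPM).

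Averaged over the 3 lines, PSME1 had the smallest p among the members, with a mean log2 fold change of 0.26 ± 0.081 (edgeR adjusted p = 0.241), and B2M followed with 0.29 ± 0.097 (edgeR adjusted p = 0.320). B2M was at 124, 131 and 125 CPM in LNCaP, at 147 and 148 CPM in 22Rv1 and at 389 and 336 CPM in PC3 with siMED12, above all siCtrl libraries of the line in 22Rv1 and PC3 and overlapping them in LNCaP. In 22Rv1 the groups overlapped once carry-over was subtracted, at 128 and 142 CPM with siMED12 against 100.1 to 144 CPM. The class I heavy chains did not share 1 direction across the lines.

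The other genes of the pathway were described by gene lists. The list of interferon ligands held 8 genes, IFNB1, IFNE, IFNK, IFNW1, IFNG, IFNL1, IFNL2 and IFNL3. These had 6 counts in all over the 16 libraries, and 0 of them could be tested. The IFNA genes were not in the list, so their counts are not described. Of 15 receptor and signaling genes, 12 were tested and 1, IFNGR2, the second chain of the interferon gamma receptor, was called with siMED12, in 22Rv1. It was at 80.7, 83.6 and 144 CPM with siCtrl and at 155 and 192 CPM with siMED12, for a log2 fold change of 0.74 ± 0.20 (edgeR adjusted p = 0.0483). The groups did not overlap, but the call was lost in DESeq2 (adjusted p = 0.167), in limma (adjusted p = 0.101), and without any 1 of siCtrl replicate 1, siCtrl replicate 2, siMED12 replicate 1 or siMED12 replicate 3 (edgeR adjusted p = 0.226, 0.20, 0.0975 and 0.348). None of the 8 tested sensors of nucleic acids and none of the 7 tested genes of peptide supply was called with siMED12 in any line (edgeR). At an unadjusted p under 0.05 there were 1, 0 and 2 of the sensors, and 1, 0 and 0 of the peptide supply genes, in LNCaP, 22Rv1 and PC3, against 7.34%, 11.7% and 4.99% of all tested genes.

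Between the lines, 5 of the 12 tested receptor and signaling genes were called higher in PC3 than in LNCaP, 4 higher in PC3 than in 22Rv1 and 1 higher in 22Rv1 than in LNCaP, with 0 lower (edgeR), where 29.2%, 28.7% and 22.0% of all tested genes were higher. In the same order, 3, 4 and 2 of the 8 sensors were higher and 0, 1 and 1 lower, and 5, 2 and 6 of the 7 peptide supply genes were higher and 0, 1 and 0 lower. The filter favored calls higher in PC3 here too. Outside PC3, the signaling genes SOCS3 and JAK1 had at most 3 counts in any library and the sensor CGAS had 0. The counts were not repeated for genes that pass within both lines compared. JAK1, the kinase shared by the receptors of all 3 interferon types, was at 1.66, 4.30 and 3.18 CPM in the LNCaP siCtrl libraries, at 0, 0 and 3.85 CPM in 22Rv1 and at 31.0, 33.6 and 28.9 CPM in PC3. PC3 was higher than LNCaP by 3.26 ± 0.53 on the log2 scale (edgeR adjusted p = 2.59e-06) and was also called higher than 22Rv1, which held 3 counts over its siCtrl libraries (edgeR adjusted p = 3.93e-07). With siMED12, JAK1 in PC3 was at 33 and 8.30 CPM in replicates 1 and 3, so replicate 3 was again the lower.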

How the data were processed

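RNA from the 16 spheroid libraries was sequenced by BRB-seq, which counts transcript 3′ ends. The authors deposited raw counts per gene, made with STARsolo on GRCh38.p13 with the Gencode annotation, and log2 CPM values for 10566 genes. Whether molecular identifiers were collapsed is not given in the sources used here. The deposited log2 CPM values were recomputed from the counts with a prior count of 2 (largest difference 4.97e-14), and 0 columns belonged to no sample. The members and gene lists were chosen with earlier results of these data known.

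Genes were filtered with filterByExpr (minimum count 10, minimum total 15), scaled by TMM and fitted with edgeR's quasi-likelihood test (4.0.16, R 4.3.3) over 6 groups, with Benjamini-Hochberg adjustment over 10566 genes and a threshold of 0.05. The fit was also run on simulated counts, with the same dispersion for all genes. These held no carry-over and no link between libraries of the same number, so that run does not bear on those features. DESeq2 (1.42.0), limma (3.58.1), other scalings and filters, a replicate block, subtraction of carry-over and leaving out each library were alternatives. Carry-over was measured with genes of at least 100 CPM in 1 line and at most 3 counts over the siCtrl libraries of another. Full statistics are given for the 3 members with the smallest p per line with siMED12. The 4 called members with the largest difference in each direction between lines are also described. Of these, only some have a log2 fold change with its SE, and others have levels, a ratio or a bound. Library totals were 479118 to 993807 counts, and intervals of counts cover counting error only. Motifs were searched in RefSeq promoters, and positions taken from Gencode release 44. Figures were drawn with matplotlib (3.10.9).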

Additional observations from a re-analysis of the deposited data

How the results depend on the processing

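The counts of genes called between lines were 9 to 14 for 22Rv1 against LNCaP, 24 to 27 for PC3 against LNCaP and 23 to 26 for PC3 against 22Rv1 when 1 library was left out, the lowest of the first without 22Rv1 siCtrl replicate 3 (9). For the siMED12 contrasts, their mean and their differences these counts were 0 to 0. With at least 10 counts required in every library, 4, 5 and 4 genes were called in the same order of line contrasts, since only 6 members were tested. With all genes of at least 1 count, 2 genes were called with siMED12 in PC3. With library totals alone, the summed siCtrl level in LNCaP was 1003 CPM. With the replicate block, 1 gene, PSME1, was called for the mean siMED12 effect (0.30, edgeR adjusted p = 0.0427), and 0 in each line. The replicate numbers did not meet the rule for pairing: 6 of 7 same-numbered pairs correlated above 0.1 (0.0787 to 0.253), although all 7 siMED12 libraries matched best with their own number, as a hint from the data. Each block lay within 1 line, so the siCtrl line contrasts were not run with it. Without PC3 siMED12 replicate 1, the OAS3 estimate in PC3 was −0.23 and without replicate 3 it was 1.61, and with both PC3 libraries of number 1 left out, an alternative chosen after seeing the data, it was −0.089. The MED12 estimate in PC3 ranged from −0.63 without siCtrl replicate 2 to 0.25 without siCtrl replicate 1, and was 0.17 with both PC3 libraries of number 1 left out. The cause was not tested. Depth limits most members outside PC3, where 3 counts correspond to 3.15 to 6.22 CPM.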
